A study of Mus musculus with 5 samples.

Results

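Interleukin 1 family and inflammasome genes were examined on arrays of CD11b+Gr1+ cells sorted from mouse lung. The set holds 10 genes chosen by name, with earlier results of these data known. They are the ligands Il1a, Il1b and Il18, the receptor antagonist Il1rn, the receptor chains Il1r1, Il1rap and Il18rap, the decoy receptor Il1r2, and Casp1 and Nlrp3 of the inflammasome. All 10 were measured, each by 1 probe set whose annotation names that gene alone, out of 14807 genes with such a probe set. Il1rl1 and Il18bp, among the genes related to this set, have no such probe set here and were not analysed.

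The tumour-challenged group has 2 arrays, from wild-type mice that carried a subcutaneous graft of 5000000 LLC-RFP cells for 9 days. LLC cells are a mouse Lewis lung carcinoma line, here carrying a red fluorescent protein (RFP). The control group has 3 arrays, from wild-type mice without a tumour. CD11b (the integrin chain Itgam) and Gr1 (an epitope of Ly6 proteins) are carried together by neutrophils and inflammatory monocytes. About 100000 cells were sorted per RNA sample, and the RNA was amplified before labelling. The sources used here do not give the strain, age or sex of the mice, or whether an array holds the cells of 1 mouse or of several. The p-values therefore measure the spread between these arrays, which may be partly technical.

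Interleukin 1 is an early alarm signal of inflammation, and its family acts through paired receptor chains that recruit the adaptor MyD88 and activate NF-kB. Interleukin 1 alpha is active as made and is released by damaged cells. Interleukin 1 beta and interleukin 18 are made as precursors that caspase-1 cleaves once an inflammasome such as that of NLRP3 has assembled. The antagonist encoded by Il1rn occupies the receptor without signalling, and the decoy receptor encoded by Il1r2 binds ligand without signalling. Neutrophils and macrophages make several of these proteins, and neutrophils carry much of the decoy receptor.

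The promoters of Il1a, Il1b and Il1rap are shown because Il1a and Il1rap had the largest negative and positive differences of the set and Il1b is the neighbour of Il1a on chromosome 2. Each is the 250 bases before the RefSeq transcript start, from the mouse build GRCm38.p6, written 5′ to 3′ in the direction of the gene. Capitals mark matches on either strand to the TATA motif TATAAA, the AP-1 motif TGANTCA and the PU.1 motif GAGGAA.
Il1a, chr2:129309973-129310222, minus strand: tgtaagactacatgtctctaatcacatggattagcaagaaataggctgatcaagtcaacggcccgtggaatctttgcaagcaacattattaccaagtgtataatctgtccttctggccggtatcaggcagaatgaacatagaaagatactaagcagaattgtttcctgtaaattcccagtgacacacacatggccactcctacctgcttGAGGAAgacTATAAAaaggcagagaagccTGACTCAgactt
Il1b, chr2:129371140-129371389, minus strand: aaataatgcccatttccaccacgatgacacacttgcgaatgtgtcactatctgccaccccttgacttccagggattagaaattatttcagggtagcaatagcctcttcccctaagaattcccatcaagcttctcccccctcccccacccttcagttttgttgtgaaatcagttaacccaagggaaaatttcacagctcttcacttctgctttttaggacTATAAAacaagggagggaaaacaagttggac
Il1rap, chr16:26581455-26581704, plus strand: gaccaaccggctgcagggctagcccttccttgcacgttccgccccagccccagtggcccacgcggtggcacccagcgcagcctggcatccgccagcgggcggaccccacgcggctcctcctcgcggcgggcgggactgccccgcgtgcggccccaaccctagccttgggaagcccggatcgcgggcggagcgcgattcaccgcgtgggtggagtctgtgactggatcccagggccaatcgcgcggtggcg
Both ligand promoters hold TATAAA, which ends 27 bases before the start in Il1a and 26 bases before it in Il1b. TATAAA is in 12.4% of the 32851 promoters of the table. The Il1a window alone of these 3 also holds TGACTCA, an AP-1 match between 12 and 6 bases before the start, and a PU.1 match between 41 and 36 bases before it. AP-1 and PU.1 matches stand in 6.75% and 23.3% of all promoters. The Il1rap window matches none of these motifs and has 74.4% G and C, against 42.4% for Il1a and 44.4% for Il1b. None of the 3 windows matches the NF-kB motif, the C/EBP motif TTGCNNAA or the IRF motif, which are in 3.90%, 9.56% and 2.98% of all promoters. A match describes letters only and was not tied to any binding.

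The values are log2 expression values made with RMA, so a difference of 1 is a 2-fold change. Array medians ran from 6.77 to 6.88, and upper quartiles from 7.90 to 8.23. A background level of 6.91 was set from 839 probe sets of smell and taste receptor genes, at the 95th percentile of their means. All 10 genes had both group means above it, and 49.2% of all genes had a mean above it. Of the 7570 genes with at least 1 group mean above background, 81.9% were lower in tumour-challenged replicate 2 than in tumour-challenged replicate 1, and so were 9 of the 10 genes of the set, Il1rap being the exception. Part of the distance between the tumour-challenged arrays is thus shared by most bright genes.

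No gene of the set passed the test of tumour-challenged against control arrays over all 16661 probe sets (limma, Benjamini-Hochberg adjusted p from 0.537 to 0.991). The same test called 0 probe sets in all, 0.0% in each direction, and its smallest adjusted p was 0.495. At an unadjusted limma p under 0.05, 493 probe sets were lower (2.96%) and 597 higher (3.58%), which makes 6.54% in either direction. Among them were 4 genes of the set that were lower, Il1a, Il1rn, Il1r1 and Il1r2, and 2 that were higher, Il1rap and Il18rap. For the same 6 genes every tumour-challenged array lay beyond every control array. Separation of this kind was found for 7.83% of all probe sets in the lower direction and 11.2% in the higher direction, 19.1% together. Among genes above background the shares were 6.61% lower and 15.7% higher. The 4 of 10 lower genes are a larger share than the background, and the 2 of 10 higher genes are close to it. The set was chosen with earlier results of these data known, so its shares and median describe it and test nothing. The median difference of the set was -0.24 log2, against 0.08 log2 for all genes above background. A positive difference was found for 2 of the 10 genes and for 66.5% of all genes above background. No gene of the set reached the 2-fold difference of group means that the submitters used, which 0.144% of probe sets passed upward and 0.132% downward.

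**Figure D1:**
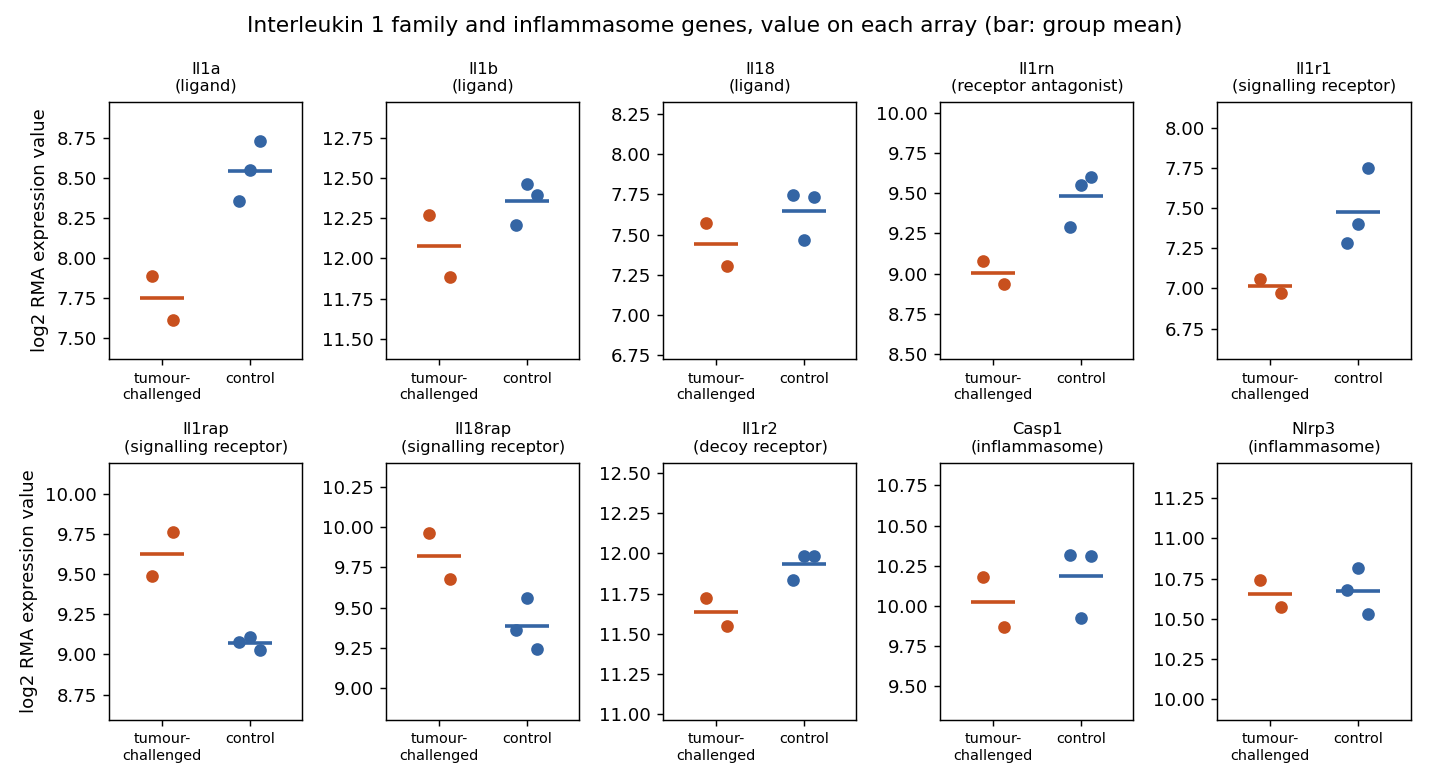
Log2 expression value of each of the 10 genes on each array, with 2 tumour-challenged arrays (orange) left of 3 control arrays (blue). Points are arrays, bars are group means, and every panel spans the same number of log2 units. The groups are separate for Il1a, Il1rn, Il1r1 and Il1r2, lower after tumour challenge, and for Il1rap and Il18rap, higher after tumour challenge.

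Il1a had the largest difference of the set. Its log2 values were 7.89 and 7.62 on the tumour-challenged arrays, against 8.36, 8.55 and 8.73 on the control arrays. Both tumour-challenged arrays lay below all control arrays, with a gap of 0.47 log2 between the nearest arrays of the groups. The mean was 7.75 ± 0.19 on tumour-challenged arrays (SD, n = 2) and 8.54 ± 0.18 on control arrays (SD, n = 3). The log2 difference was -0.79 ± 0.15 (SE), or 0.578 of the control level, with a 95% interval from -1.19 to -0.39 and an adjusted p of 0.556 by limma. Only 72 of the 16661 probe sets (0.432%) had a difference as low or lower. It ran from -0.93 without tumour-challenged replicate 1 to -0.65 without tumour-challenged replicate 2, so its sign did not depend on either of these arrays.

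Il1b, which encodes the ligand that caspase-1 activates, was bright in both groups and its arrays overlapped. Its log2 values were 12.27 and 11.88 on the tumour-challenged arrays, against 12.21, 12.47 and 12.39 on the control arrays. Tumour-challenged replicate 1 lay above control replicate 1, and tumour-challenged replicate 2 lay below all controls. The log2 difference was -0.28 ± 0.15 (SE), with a 95% interval from -0.69 to 0.13 and an adjusted p of 0.818 by limma. With tumour-challenged replicate 2 left out it was -0.09, and with tumour-challenged replicate 1 left out -0.47. The interval includes 0 and ends short of the -0.79 of Il1a, but it overlaps the interval of Il1a, from -1.19 to -0.39.

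Il18, the third ligand, is known to be made constitutively by epithelium and macrophages and acts on T and NK cells. Its log2 values were 7.57 and 7.31 on the tumour-challenged arrays, against 7.74, 7.46 and 7.73 on the control arrays. The groups overlapped, since control replicate 2 lay below tumour-challenged replicate 1. A log2 difference of -0.21 ± 0.14 (SE) was found, with a 95% interval from -0.58 to 0.16. Leaving out tumour-challenged replicate 2 gave -0.08, and leaving out tumour-challenged replicate 1 gave -0.34.

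Il1a and Il1b are neighbours, with no other protein-coding gene between their starts in the RefSeq order of chromosome 2. On each array the log2 value of Il1b was subtracted from that of Il1a, which removes a shift that is equal for all genes of an array. A shift that varies with brightness is not removed in this way, and Il1b had the higher log2 value on every array. The level of the Il1a minus Il1b quantity depends on the probes, so only its change between groups carries information. The Il1a minus Il1b quantity was -4.38 and -4.26 on the tumour-challenged arrays, against -3.85, -3.92 and -3.67 on the control arrays. The groups did not overlap, and the SD was 0.0802 over the 2 tumour-challenged and 0.130 over the 3 control arrays. The difference of group means was -0.51 log2, with a p of 0.1 in a two-sided exact permutation test over the 10 ways to split the arrays. That is the smallest p this design can give, and the value adjusted over the 4 pairs compared was 0.133. The difference of group means stayed between -0.66 (quantile normalization) and -0.44 (without control replicate 3) over other normalizations and with each array left out.

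**Figure D2:**
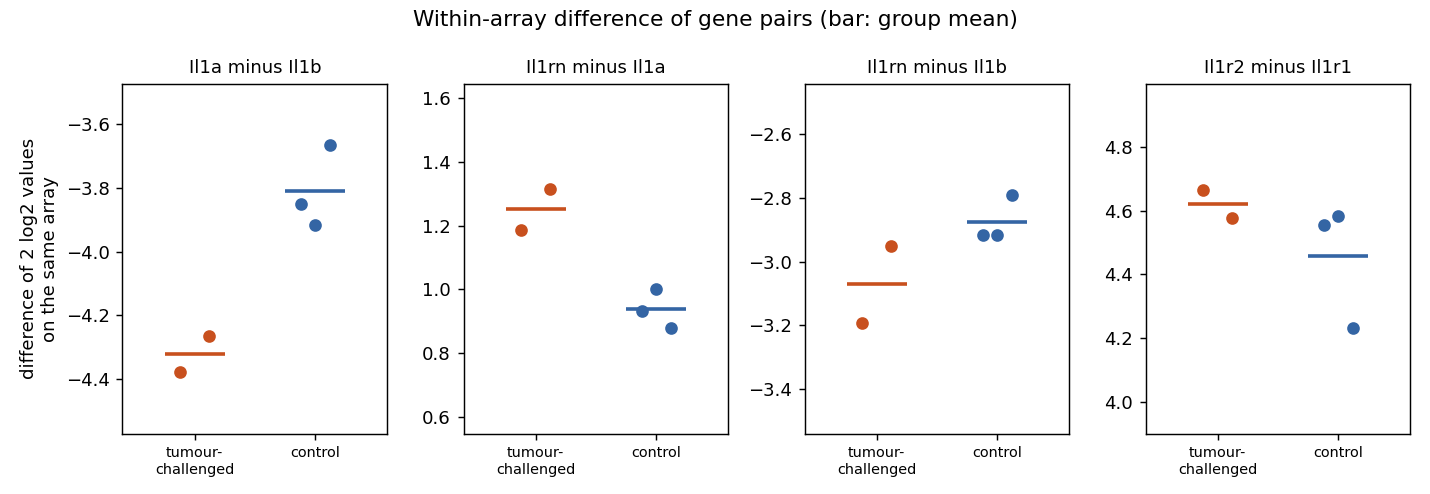
Difference of the log2 values of 2 genes on the same array, for 4 pairs, with tumour-challenged arrays (orange) left of control arrays (blue). Points are arrays, bars are group means, and all panels span the same number of log2 units. Il1a minus Il1b is lower on both tumour-challenged arrays (-4.38 and -4.26) than on any control array, and Il1rn minus Il1a is higher on both.

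Il1rn, which encodes the antagonist, was also lower on the tumour-challenged arrays. Its log2 values were 9.08 and 8.93, against 9.29, 9.55 and 9.60 on the control arrays. The groups did not overlap, and 0.21 log2 separated their nearest arrays. Il1rn differed by -0.48 ± 0.12 log2 (SE), or 0.719 of the control level, with a 95% interval from -0.80 to -0.15 and an adjusted p of 0.662 by limma. Its difference was smaller in size than that of Il1a and larger than that of Il1b.

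Set against each ligand on the same array, the antagonist was therefore higher relative to Il1a and lower relative to Il1b. Il1rn minus Il1a was 1.19 and 1.32 on the tumour-challenged arrays, against 0.93, 1.00 and 0.88 on the control arrays. Its group means differed by 0.31 log2, and the groups did not overlap. Il1rn minus Il1b was -3.19 and -2.95 on the tumour-challenged arrays, against -2.92, -2.92 and -2.79 on the control arrays. Here the groups were separate by a narrow margin, with a difference of -0.20 log2. Leaving out tumour-challenged replicate 1 gave -0.08, and leaving out tumour-challenged replicate 2 gave -0.32. Both pairs gave the smallest p possible, 0.1 in the two-sided exact permutation test and 0.133 after adjustment over the 4 pairs. After quantile normalization Il1rn minus Il1b differed by -0.34 log2 with an exact permutation p of 0.2.

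The receptor chains went in opposite directions. Il1r1, the signalling receptor of interleukin 1, had log2 values of 7.06 and 6.97 on the tumour-challenged arrays, against 7.28, 7.40 and 7.75 on the control arrays. The groups did not overlap, and the tumour-challenged mean of 7.01 was close to the background level, so that the difference is measured against a group near background. Il1r1 had a log2 difference of -0.46 ± 0.16 (SE), with a 95% interval from -0.90 to -0.03 and an adjusted p of 0.730 by limma. It was -0.33 without control replicate 3, the brightest control array for this gene.

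Il1rap encodes the accessory chain that the interleukin 1, interleukin 33 and interleukin 36 receptors share. Its log2 values were 9.49 and 9.76 on the tumour-challenged arrays, against 9.08, 9.11 and 9.03 on the control arrays. The control arrays lay close together (SD of 0.0395, n = 3), and both tumour-challenged arrays lay above them by at least 0.38 log2. Il1rap had a log2 difference of 0.55 ± 0.10 (SE), or 1.47-fold, with a 95% interval from 0.29 to 0.82 and an adjusted p of 0.537 by limma. As high a difference was reached by 231 probe sets (1.39%). It is the 1 gene of the set for which tumour-challenged replicate 2 was the brighter of the tumour-challenged arrays, against the shift of most bright genes given above.

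Il18rap, the accessory chain of the interleukin 18 receptor, is expressed by T and NK cells and by other leukocytes. Its log2 values were 9.96 and 9.68 on the tumour-challenged arrays, against 9.36, 9.56 and 9.24 on the control arrays. The groups did not overlap, with a gap of 0.12 log2 that is smaller than the spread within either group. The log2 difference was 0.43 ± 0.14 (SE), or 1.35-fold, with a 95% interval from 0.05 to 0.82 and an adjusted p of 0.720 by limma. Its partner Il18r1, the ligand-binding chain, had overlapping arrays and a log2 difference of -0.05 ± 0.15 (SE). The difference between these paired chains was not tested.

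Il1r2, the decoy receptor, had log2 values of 11.72 and 11.55 on the tumour-challenged arrays, against 11.84, 11.98 and 11.98 on the control arrays. It was bright on every array, and its groups were separated by a gap of 0.11 log2. Il1r2 had a log2 difference of -0.30 ± 0.09 (SE), or 0.812 of the control level, with a 95% interval from -0.54 to -0.06 and an adjusted p of 0.694 by limma. The decoy and the signalling receptor were both lower. Il1r2 minus Il1r1 was 4.67 and 4.58 on the tumour-challenged arrays, against 4.55, 4.58 and 4.23 on the control arrays. These groups overlapped, with a difference of 0.16 log2 and a two-sided exact permutation p of 0.5.

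Il1r2, Il1r1, Il1rl2, Il1rl1, Il18r1 and Il18rap follow each other in that order on chromosome 1, with no other protein-coding gene between them in the RefSeq order. Of these 6 neighbours 5 were measured. Their log2 differences in that order were -0.30 for Il1r2, -0.46 for Il1r1, -0.18 for Il1rl2, -0.05 for Il18r1 and 0.43 for Il18rap. Il1rl2, a chain of the interleukin 36 receptor, had both group means under the background level. Genes at opposite ends of the cluster thus had differences of opposite sign, with arrays that did not overlap at either end.

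**Figure D3:**
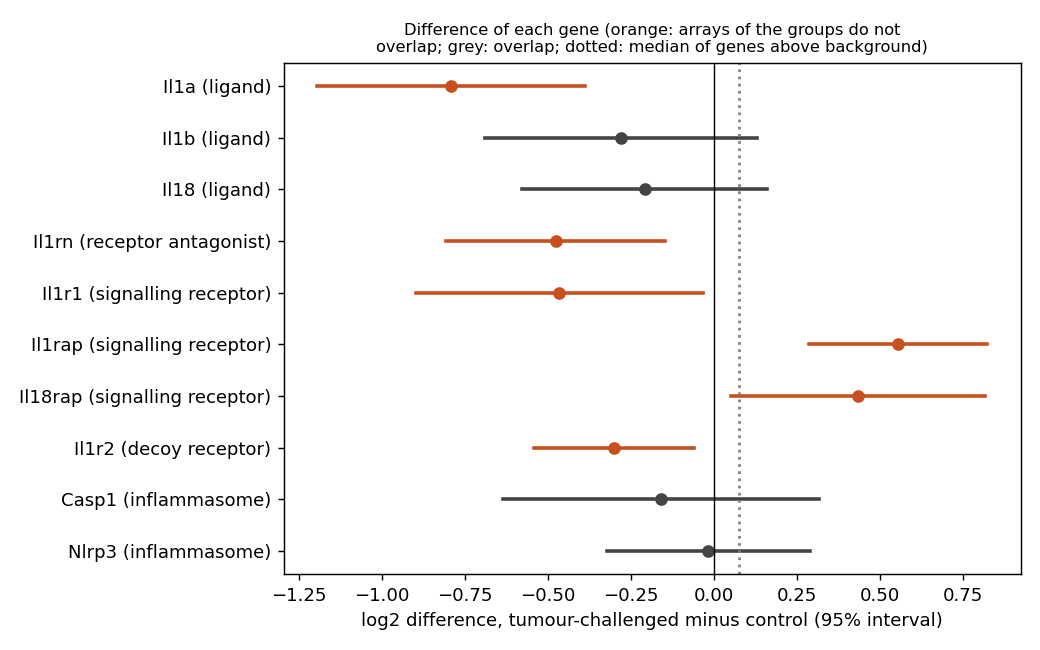
Log2 difference of each of the 10 genes, tumour-challenged minus control, as points with 95% intervals from limma, in the order of ligands, antagonist, signalling receptors, decoy receptor and inflammasome. Orange marks genes whose arrays did not overlap between groups, grey those that overlapped, and the dotted line is the median of genes above background at 0.08. Il1a lies farthest left at -0.79 and Il1rap farthest right at 0.55.

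The inflammasome genes of the set overlapped between groups. Casp1, the protease that processes the precursors of interleukin 1 beta and interleukin 18, had log2 values of 10.18 and 9.87 on the tumour-challenged arrays, against 10.32, 9.92 and 10.31 on the control arrays. The difference was -0.16 ± 0.18 (SE), with a 95% interval from -0.64 to 0.32. Leaving out tumour-challenged replicate 2 brought it to -0.0021, and leaving out tumour-challenged replicate 1 to -0.32. Nlrp3, the sensor of the inflammasome, had log2 values of 10.74 and 10.58 on the tumour-challenged arrays, against 10.68, 10.82 and 10.53 on the control arrays. The difference was -0.02 ± 0.11 (SE), with a 95% interval from -0.32 to 0.29, and its sign changed without tumour-challenged replicate 2 (0.06) or without control replicate 2 (0.05). The interval of Nlrp3 leaves out changes of the size measured for Il1a and Il1rap, while that of Casp1 includes a difference as low as that of Il1rn.

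By role, the median log2 difference was -0.28 over the 3 ligands, -0.48 for the antagonist, -0.30 for the decoy receptor, 0.43 over the 3 signalling receptor chains and -0.09 over the 2 inflammasome genes. These are descriptions of few genes and carry no test. Arrays did not overlap for 1 of 3 ligands, for the antagonist, for the decoy receptor, for 3 of 3 signalling chains (2 higher and 1 lower) and for 0 of 2 inflammasome genes. Over all probe sets 19.1% were separate in either direction, and among genes above background 6.61% were lower and 15.7% higher without overlap.

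Of 26 further genes of inflammasomes and pyroptosis, 18 were measured, and 12 had a positive and 6 a negative difference. The median was 0.07 log2, near the 0.08 of all genes above background, and none passed limma's test. The arrays did not overlap for 2 that were lower and 3 that were higher. Of these 3, Nlrp10 had both group means under the background level. Among all genes above background 6.61% were lower and 15.7% higher without overlap, and over all probe sets 7.83% and 11.2%. In this list and in those of signalling and target genes, the share of positive differences is near the 66.5% of all genes above background. These lists include genes under the background level, and over all genes the share was 58.3%. Aim2, the sensor of cytosolic DNA, had log2 values of 10.91 and 10.44 on the tumour-challenged arrays, against 11.23, 11.37 and 11.35 on the control arrays. Its difference was -0.65 ± 0.16 (SE), with an adjusted p of 0.648 by limma. Gbp2, an interferon-induced GTPase that takes part in inflammasome activation in mouse macrophages, differed by -0.46 ± 0.15 (SE), also without overlap. Pycard, the adaptor ASC that links NLRP3 to caspase-1, differed by 0.39 ± 0.30 (SE), and Pstpip1, which binds pyrin, by 0.34 ± 0.22. The pore protein gene Gsdmd (0.06 ± 0.24, SE) and the NLRP3 partner Nek7 (-0.05 ± 0.20, SE) had overlapping arrays.

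Of 20 genes of signalling below the interleukin 1 receptor, 17 were measured, 11 with a positive and 6 with a negative difference and a median of 0.08 log2. The arrays did not overlap for 3 that were higher and 0 that were lower, and none passed limma's test. These counts stand beside shares of 15.7% higher and 6.61% lower among all genes above background. Map3k7, the kinase TAK1, differed by 0.46 ± 0.20 (SE), Peli2, a Pellino ubiquitin ligase, by 0.44 ± 0.13, the adaptor gene Myd88 by 0.43 ± 0.27 and the kinase gene Ikbkb by 0.36 ± 0.24. Control replicate 3 was the lowest array for each of these 4 genes. Myd88, for example, had log2 values of 10.49 and 10.39 on the tumour-challenged arrays, against 10.30, 10.22 and 9.51 on the control arrays.

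Of 22 NF-kB target genes that interleukin 1 can induce, 19 were measured, 12 with a positive and 7 with a negative difference and a median of 0.10 log2. None passed limma's test. Lcn2, the siderophore-binding lipocalin that neutrophils also store in granules, stood apart with log2 values of 10.81 and 10.45 on the tumour-challenged arrays, against 8.74, 9.02 and 9.12 on the control arrays. Its difference was 1.67 ± 0.17 (SE), with an adjusted p of 0.517 by limma. The monocyte chemokine gene Ccl2 differed by 0.48 ± 0.37 (SE), with tumour-challenged values of 9.34 and 8.21 that stood far apart. Ccl3 differed by -0.38 ± 0.29 (SE) and Bcl3, an atypical inhibitor of NF-kB, by 0.25 ± 0.12. Nfkbia and Tnfaip3, feedback inhibitors of NF-kB, differed by 0.17 ± 0.14 and -0.24 ± 0.14 (SE).

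Of 13 further genes related to the interleukin 1 family, 6 were measured, and Il18r1 was the 1 with a group mean above background. Of the 4 serine and cysteine protease genes of neutrophil granules, which can cleave interleukin 1 precursors outside the inflammasome or activate such proteases, all 4 were measured and 3 had a positive difference. Prtn3, proteinase 3, had log2 values of 7.25 and 6.96 on the tumour-challenged arrays, against 6.44, 6.40 and 6.40 on the control arrays. Its difference was 0.69 ± 0.10 (SE), from control values below background. Ctsc, which activates these proteases, differed by 0.20 ± 0.16 (SE), and both group means of Elane and of Ctsg were under the background level.

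**Figure D4:**
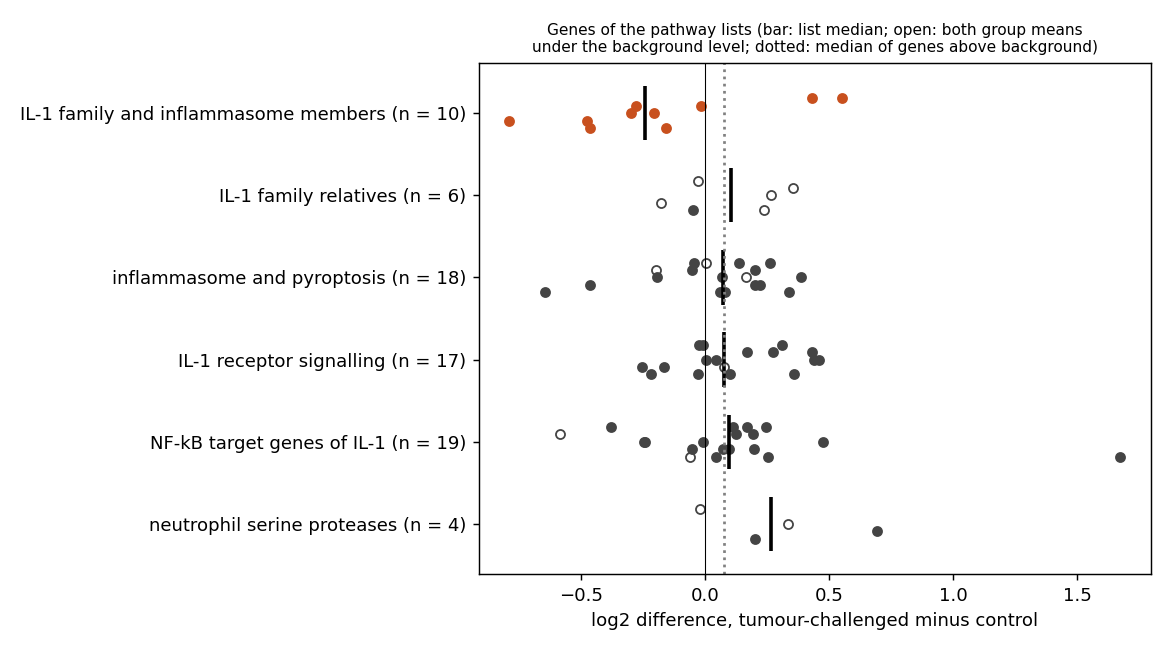
Log2 difference, tumour-challenged minus control, of each gene of the set (orange, top) and of 5 lists of related genes (grey). Vertical bars are list medians, open points are genes with both group means under the background level, and the dotted line is the median of genes above background at 0.08. The median of the set is at -0.24, while the medians of inflammasome, signalling and target genes lie between 0.07 and 0.10.

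Sorted cells are a mixture, so fewer cells of a type and less RNA per cell cannot be told apart in these data. Markers of some cell types moved beside the genes of the set, and their part in the differences was not tested. The counts of markers stand beside 6.61% lower and 15.7% higher without overlap among all genes above background. They include markers under the background level, and over all probe sets the shares were 7.83% lower and 11.2% higher. B-cell markers were lower in 9 of 9 measured, 7 of them without overlap. Of these 7, Ms4a1, Cd22, Cr2 and Vpreb3 had tumour-challenged means under the background level, and Vpreb3 its control mean too. The summed level of B-cell markers was 10.45 to 10.50 log2 on tumour-challenged and 10.83 to 11.15 on control arrays. The brightest of them, Cd79b and Pax5, differed by -0.29 and -0.70, and the arrays of Cd79b overlapped. Alveolar macrophage markers were lower in 9 of 11, 6 without overlap, with a summed level of 11.39 to 11.45 on tumour-challenged and 11.67 to 11.78 on control arrays. The brightest, Lpl and Plet1, differed by -0.83 and -0.31. Dendritic cell markers were lower in 6 of 8, 3 without overlap, with a summed level of 10.40 to 10.85 on tumour-challenged and 10.61 to 10.67 on control arrays. Clec9a and Cd209a differed by -1.17 and -0.59 without overlap. Xcr1, the other of these 3, had both group means under the background level. The brightest, Ccr7 and Flt3, differed by -0.17 and 1.27, and the tumour-challenged values of Flt3 were 9.51 and 7.99. Eosinophil, basophil and mast cell markers were lower in 6 of 10, 3 without overlap, and 2 were higher without overlap. Of the 3 lower without overlap, Il5ra and Cpa3 had both group means under the background level. The eotaxin receptor gene Ccr3 differed by -1.48, with a tumour-challenged mean under the background level. Mcpt8 and Prg2 differed by 0.98 and 0.83, with control means under that level.

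Markers of the cells the gate selects were bright and split in direction. Of 10 measured neutrophil markers 5 had a positive difference without overlap, among them the granule genes Ngp (2.12), Ltf (1.83) and Camp (1.56). The control means of Ltf and Camp were under the background level, which limits what their exact differences say. The other 5 had a negative difference, with the chemokine receptor gene Cxcr4, the 1 of them without overlap, at -0.38, S100a9 at -0.08, S100a8 at -0.08, the chemokine receptor gene Cxcr2 at -0.12 and the G-CSF receptor gene Csf3r at -0.22. Ly6g, which encodes part of the Gr1 epitope, was not analysed here. Monocyte markers had a positive difference in 8 of 9, 3 of them without overlap. These 3 were Vcan at 2.23, F13a1 at 0.79 and Fn1 at 0.65, while the brightest markers, Chil3 and Ccr2, were at 0.09 and 0.04. T and NK cell markers, relevant to Il18rap, had a positive difference in 7 of 11, with a summed level of 11.14 to 11.42 on tumour-challenged and 11.15 to 11.45 on control arrays. That summed level overlapped between groups, but single markers split in direction. The brightest, Cd2 and Gzma, differed by 0.16 and -0.17 with overlapping arrays. Without overlap, Cd3d was higher (0.20), and Gzmb and Ncr1 were lower (-0.61 and -0.44). Gzmb had its tumour-challenged mean under the background level, and Ncr1 had both group means under it. The part of T and NK cells in the Il18rap values was not tested. Positive differences were found for 7 of 9 lung epithelial, 4 of 4 erythroid and 3 of 4 platelet markers, and negative ones for 5 of 7 endothelial and 3 of 6 fibroblast markers. Of all genes above background, 66.5% had a positive difference, and of all genes 58.3%.

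**Figure D5:**
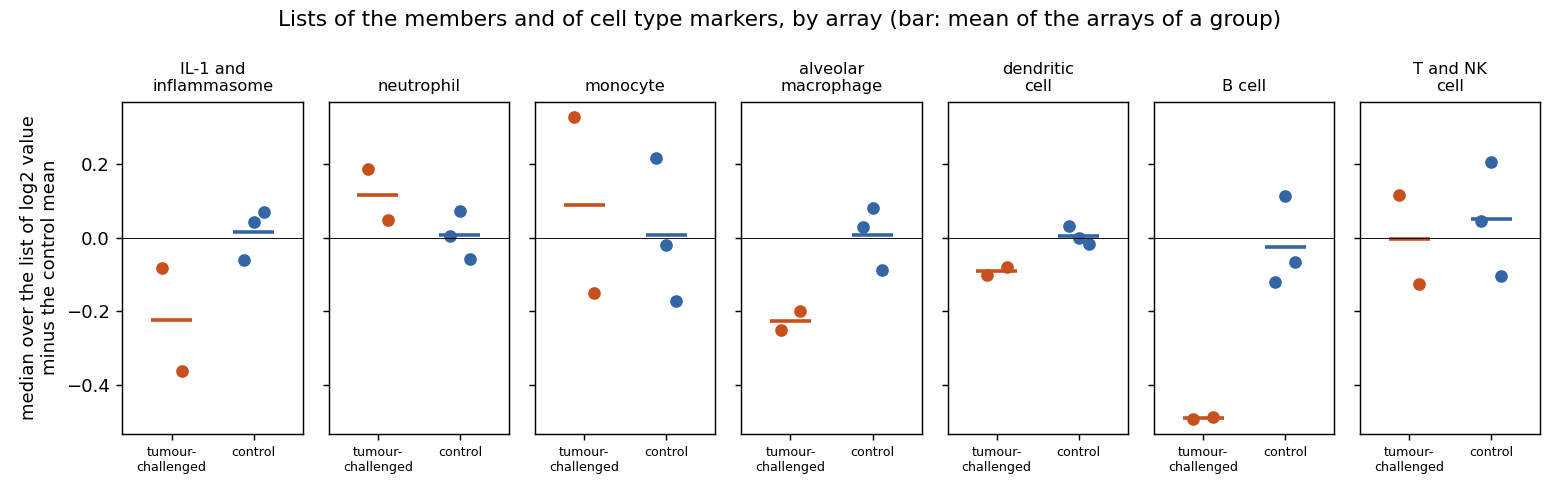
Median over each list of the log2 value minus the control mean, for the 10 genes of the set and for 6 lists of cell type markers. Tumour-challenged arrays (orange) stand left of control arrays (blue), points are arrays and bars are the mean of a group's arrays. B-cell markers stand at -0.49 on both tumour-challenged arrays and alveolar macrophage markers at -0.25 and -0.20, while neutrophil, monocyte and T and NK cell lists overlap between groups.

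All 13 measured oxidative phosphorylation genes, which were listed to follow RNA quality, had a positive difference, with a median of 0.36 log2. Their list median against the control mean was 0.51 and 0.12 on the tumour-challenged arrays and 0.24, 0.07 and -0.32 on the control arrays. On the control arrays this order was the reverse of that of Il1a, Il1rn, Il1r1 and Il1r2. These genes were lowest in control replicate 1 and highest in control replicate 3, though Il1r2 was nearly equal in control replicates 2 and 3. On the tumour-challenged arrays it was not reversed: the list and these genes were all higher in tumour-challenged replicate 1 than in tumour-challenged replicate 2. The part of RNA quality in the differences was not tested.

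Among 7280 other genes above background, those with a profile over the 5 arrays most like that of Il1a were P2ry10, Ms4a1 and Slc25a33. The measure was the root mean square distance between profiles after subtraction of each gene's control mean, and it was 0.0909, 0.0922 and 0.106 log2 for these genes, against a median of 0.586 over all compared. P2ry10 encodes a lysophospholipid receptor of lymphocytes and Ms4a1 the B-cell protein CD20. Their log2 differences were -0.82 for P2ry10, -0.81 for Ms4a1 and -0.74 for Slc25a33, a mitochondrial carrier gene. Ms4a1 and Slc25a33 had tumour-challenged means of 6.71 and 6.78, under the background level, so their distances rest in part on values at background. The profiles most like that of Il1b were those of Scai, Gca and Arhgap5, at distances of 0.0403, 0.0445 and 0.0447 log2, against a median of 0.296. Gca encodes grancalcin, a calcium-binding protein abundant in neutrophils. The distance includes the group difference itself, so genes with nearly the same difference come out nearest by construction. With 5 arrays such likeness is a description and says nothing of shared control.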

How the data were processed

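The deposited values are log2 expression values, 1 column per array, and the submitters' processing notes name RMA as the tool. RMA corrects the background, equalises the distribution of probe signals across arrays and combines the probes of a set by median polish. The sources used here give neither its version nor a filter, and no role for the build mm8 that the notes name. No scanner data were used. Of the 16661 probe sets, 3293 have exactly equal values on at least 2 arrays, among them 0 of the 10 genes described. Probe sets were named from the platform annotation: 14939 carry 1 gene symbol, 989 several (not assigned) and 733 are unnamed here. The brightest probe set stood for a gene.

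Tumour-challenged arrays were compared with control arrays by limma 3.58.1 in R 4.3.3 (two-sided, Benjamini-Hochberg adjustment over all probe sets, threshold 0.05, with 3 residual and 1.36 prior degrees of freedom). The script was tested on simulated data with independent noise and changes larger than any of the set. That test does not measure how well differences of the set's size are found. Alternatives were median centring, quantile normalization, an intensity trend with robust variances, leaving out the dimmest 25%, a replicate block and leaving out each array. The precision is limited by the number of arrays. The genes, lists and tests were chosen with earlier results of these data known. All genes of the set were named, and from each pathway list up to 4 with the largest difference and a group mean above background. Gsdmd, Nek7, Nfkbia, Tnfaip3, Elane, Ctsg, Il1rl2, Clec9a, Cd209a, Ccr3, Mcpt8, Prg2, Vcan, F13a1, Fn1, Ngp, Ltf, Camp, Cxcr4, Cxcr2 and Csf3r were added after their values were seen. So were Nlrp10, Cd22, Cr2, Vpreb3, Xcr1, Il5ra, Cpa3, Cd3d, Gzmb and Ncr1.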

Additional observations from a re-analysis of the deposited data

How the results depend on the processing

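Of the 10 genes, 9 kept the sign of their difference under all 10 alternatives, while that of Nlrp3 ran from -0.10 to 0.064 log2 with arrays left out in turn, at 0.05 without control replicate 2 and 0.064 without tumour-challenged replicate 2. No gene of the set passed limma's test under any alternative. Median centring of the arrays gave 1 call over all probe sets, that of Ltf (limma adjusted p = 0.0254), and the cause was not tested. With arrays left out in turn, the number of genes of the set lower without overlap ran from 4 to 7, being 7 without tumour-challenged replicate 1, and 2 were higher each time. Probe sets past 2-fold ran from 17 to 57 higher (57 without tumour-challenged replicate 2) and from 23 to 75 lower (75 without tumour-challenged replicate 1, 45 without control replicate 2). Fewer arrays were left in each of these. The Il1a minus Il1b difference ran from -0.57 to -0.44, Il1rn minus Il1a from 0.25 to 0.38, Il1rn minus Il1b from -0.32 to -0.08 (-0.34 after quantile normalization) and Il1r2 minus Il1r1 from 0.05 to 0.23. The replicate numbers 1 and 2, shared by the groups, give 2 pairs and were not taken as pairing samples: with the replicate block 0 probe sets passed, and the differences of Il1a and Il1rap were -0.70 and 0.53. Each gene of the set has 1 probe set, so the mean of several probe sets could give no other value. With 2 against 3 arrays, the exact test cannot give a p under 0.1.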
